A study of Mus musculus with 6 samples.

Results

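The genes described here are 9 imprinted genes, *H19*, *Igf2*, *Igf2r*, *Dlk1*, *Peg3*, *Mest*, *Cdkn1c*, *Snrpn* and *Ndn*, together with *Afp*, the gene of alpha-fetoprotein, a main plasma protein made by fetal liver. They were chosen by name, with the comparison of LIRKO and Flox livers already known: *H19* was among the genes that the study displayed as altered, and the other genes were grouped around it as imprinted or fetal genes. Their differences between LIRKO and Flox are therefore given as a description, with no p-value, and a count of those called in the fit over all probe sets is no evidence for them. Of the 10 genes, 9 were measured, by 14 probe sets of the 12422 tested, and no probe set was annotated to *Snrpn*. A probe set is the group of short oligonucleotides on an array that reads one transcript. In all, 8251 genes had a probe set of their own, while the probe set of *H19* is annotated jointly to the microRNA inside it.

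Liver RNA of LIRKO mice, which lack the insulin receptor in the liver, and of Flox control mice was hybridized to 6 Affymetrix arrays, 3 for each genotype. LIRKO mice carry insulin receptor alleles flanked by loxP sites on both chromosomes (IR flox/flox) and a Cre recombinase transgene driven by the albumin promoter (albumin:CRE +). Flox mice carry the same floxed alleles without Cre (albumin:CRE -). All mice were male, 2 to 3 months old, on a normal chow diet and not fasted when the livers were taken, on a mixed background that includes C57BL/6, FVB, DBA and a further strain. Albumin is made by hepatocytes. Whether liver cells of other types keep their receptor in LIRKO mice was not measured here. Each array was hybridized with RNA pooled from 2 to 3 mice, so the SD of a group measures how its 3 pools differ, not how single mice do. Values are on the log2 scale, where a difference of 1 is a doubling, and an SD is taken over the 3 arrays of a group. The insulin receptor's own probe set read 5.37, 5.99 and 6.06 in LIRKO 1, 2 and 3, against 5.45, 5.22 and 5.38 in Flox 1, 2 and 3. No source used here says whether its oligonucleotides match the exon that Cre removes, so it does not check the genotypes.

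Imprinted genes are transcribed from one parental allele, set by DNA methylation laid down in the egg or sperm. Many of them act on growth before birth, with paternally expressed genes such as *Igf2* promoting growth and maternally expressed genes such as *Igf2r* and *Cdkn1c* limiting it. In mouse liver, *H19*, *Igf2* and *Afp* are abundant before birth and are silenced within weeks after it, and *Afp* and *H19* can return in regenerating or cancerous liver.

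*H19* encodes a long non-coding RNA that is transcribed from the maternal allele. It lies on mouse chromosome 7 at positions 142575530 to 142578146 (GRCm38.p6), and the hairpin of the microRNA mmu-miR-675 lies inside it, at 142577064 to 142577147. The array's annotation names the *H19* probe set by both, and the sequences of the hairpin and its 2 mature microRNAs are shown because this is the small RNA that the *H19* transcript carries. They are from RefSeq, on the minus strand of GRCm38.p6. In the hairpin, capitals mark the 2 mature arms, and in the mature microRNAs they mark the seed, bases 2 to 8, which pairs with target RNAs.
mmu-mir-675 hairpin, chr7:142577064-142577147: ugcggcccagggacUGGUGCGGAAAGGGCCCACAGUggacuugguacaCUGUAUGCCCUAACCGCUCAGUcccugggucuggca
mmu-miR-675-5p, chr7:142577112-142577133: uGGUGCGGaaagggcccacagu
mmu-miR-675-3p, chr7:142577078-142577099: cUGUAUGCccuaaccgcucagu
Of the 1738 mature mouse microRNAs in the same RefSeq table, each of these seeds was carried by 1, the microRNA shown. The arrays read the long transcript, and mature microRNAs were not measured.

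LIRKO 2 and LIRKO 3 stood apart from the other 4 arrays, over all genes. Their values had an SD of 1.72 and 1.78 over all probe sets, against 2.00 in LIRKO 1 and 1.96 to 2.01 in the Flox arrays, and their brightest 10% of probe sets lay 1.09 and 0.89 below Flox (0.01 below Flox in LIRKO 1). LIRKO 1 is therefore also given alone, beside each value. A shift that depends on the level of a probe set is given as the median difference of the 500 probe sets nearest to it in mean Flox level. On LIRKO 2 and LIRKO 3 this shift was 0.20 and 0.11 around the *H19* probe set, and it was -0.03 on LIRKO 1.

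Over all 12422 probe sets, the limma test at an adjusted p under 0.05 called 9 higher in LIRKO (0.0725%) and 7 lower (0.0564%). Of the 14 probe sets described here it called 1, that of *H19*, as higher, and none as lower. The count was 0 when LIRKO 2, LIRKO 3, Flox 1, Flox 2 or Flox 3 was left out, and 8 when LIRKO 1 was left out, where 6095 of all probe sets passed. The groups did not overlap, with LIRKO above Flox, in 5 of the 14 probe sets, against 9.84% of all probe sets, and in none with LIRKO below Flox, against 14.9%. LIRKO 1 alone lay above all 3 Flox arrays in 7 of the 14, against 24.7% of all, and below them in 0, against 30.9%. LIRKO 2 and LIRKO 3 lay above all Flox arrays while LIRKO 1 did not in 4 of the 14, both probe sets of *Igf2* and both of *Afp*, against 23.7% of all. As the genes were chosen with this contrast known, nothing is read from these counts.

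*H19* read 7.55, 8.49 and 8.03 in LIRKO 1, 2 and 3, against 5.25, 5.81 and 5.53 in Flox 1, 2 and 3. All LIRKO arrays were high and all Flox arrays were low, with a gap of 1.73 between the lowest LIRKO and the highest Flox array. The means were 8.02 ± 0.47 in LIRKO and 5.53 ± 0.28 in Flox (SD, n = 3 each). Their difference was 2.49 with a standard error of 0.26, which is 5.62-fold. In LIRKO 1, the array like Flox in its overall spread, *H19* was 2.02 above the Flox mean, which is 4.05-fold. In LIRKO 2 and LIRKO 3 it was 2.96 and 2.50 above. By size of the mean difference *H19* was 11th of the 12422 probe sets, and on LIRKO 1 alone it was 14th. In bulk RNA, more cells with a transcript and more of the transcript per cell cannot be told apart, here and in all values below.

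**Figure D1:**
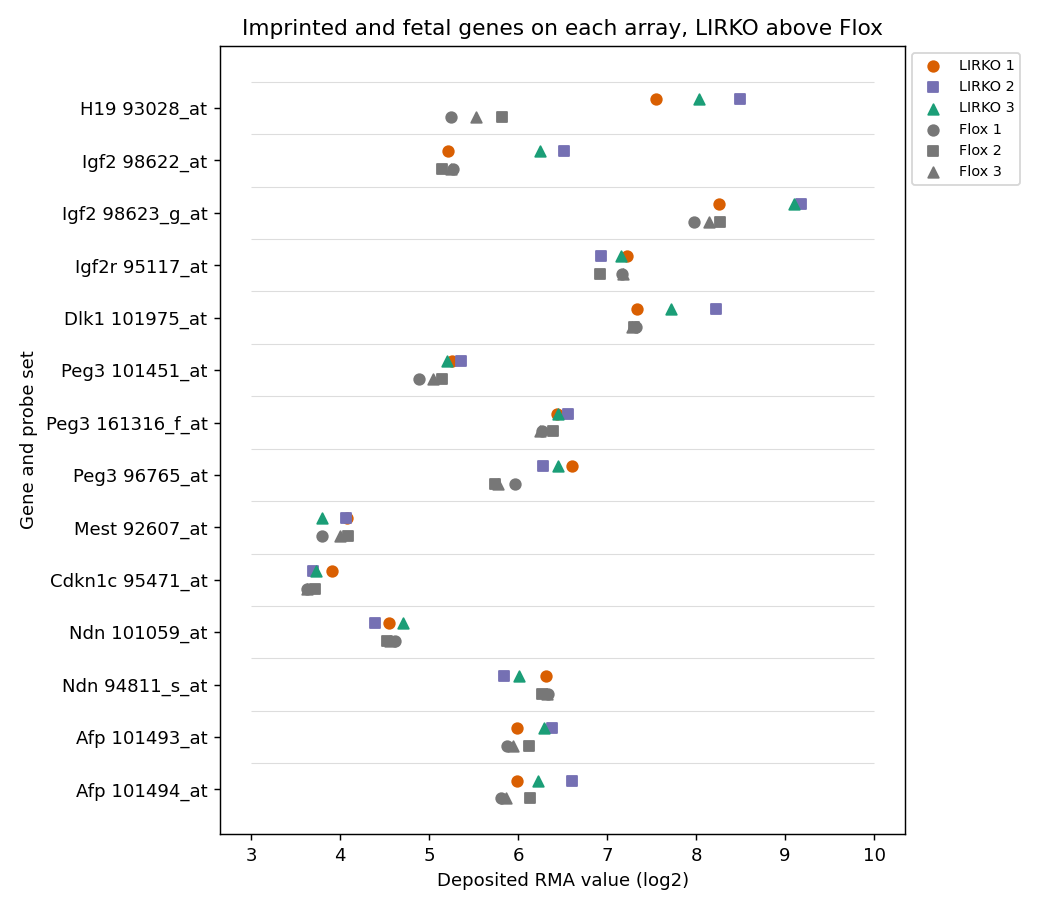
The log2 value of each of the 14 probe sets is drawn on the horizontal axis for the 3 LIRKO arrays (coloured, upper line of each pair) and the 3 Flox arrays (grey, lower line). *H19* has LIRKO arrays at 7.55 to 8.49 and Flox arrays at 5.25 to 5.81, while in the other genes the groups lie closer or overlap.

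*Igf2* encodes insulin-like growth factor 2, a growth factor of fetal life expressed from the paternal allele. Its first coordinate is 75.2 kb above that of *H19*, and it spans 142650768 to 142666816 of chromosome 7. Both genes share enhancers, with an imprinted control region that directs them to one gene on each parental chromosome. One *Igf2* probe set read 8.25, 9.18 and 9.10 in LIRKO 1, 2 and 3, against 7.98, 8.27 and 8.14 in Flox 1, 2 and 3. LIRKO 1 lay within the Flox arrays, and LIRKO 2 and LIRKO 3 lay above them. The mean difference was 0.72 with a standard error of 0.26, with LIRKO 1 at 0.13, LIRKO 2 at 1.05 and LIRKO 3 at 0.97. The other *Igf2* probe set, designed from the same transcript record, read 5.21, 6.52 and 6.25 in LIRKO, against 5.27, 5.15 and 5.25 in Flox. It was 0.01 below the Flox mean on LIRKO 1 and 1.29 and 1.03 above it on LIRKO 2 and LIRKO 3. On LIRKO 1, then, *H19* was 2.02 above Flox while neither *Igf2* probe set left the Flox range. On LIRKO 2 and LIRKO 3, probe sets of like level shifted by -0.31 and -0.23 around the first *Igf2* probe set. Around the other they shifted by 0.18 and 0.12. With the shift of each LIRKO array taken off, the mean differences were 0.91 and 0.68. Whether the overall behaviour of LIRKO 2 and LIRKO 3 has a part in their *Igf2* values was not tested.

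**Figure D2:**
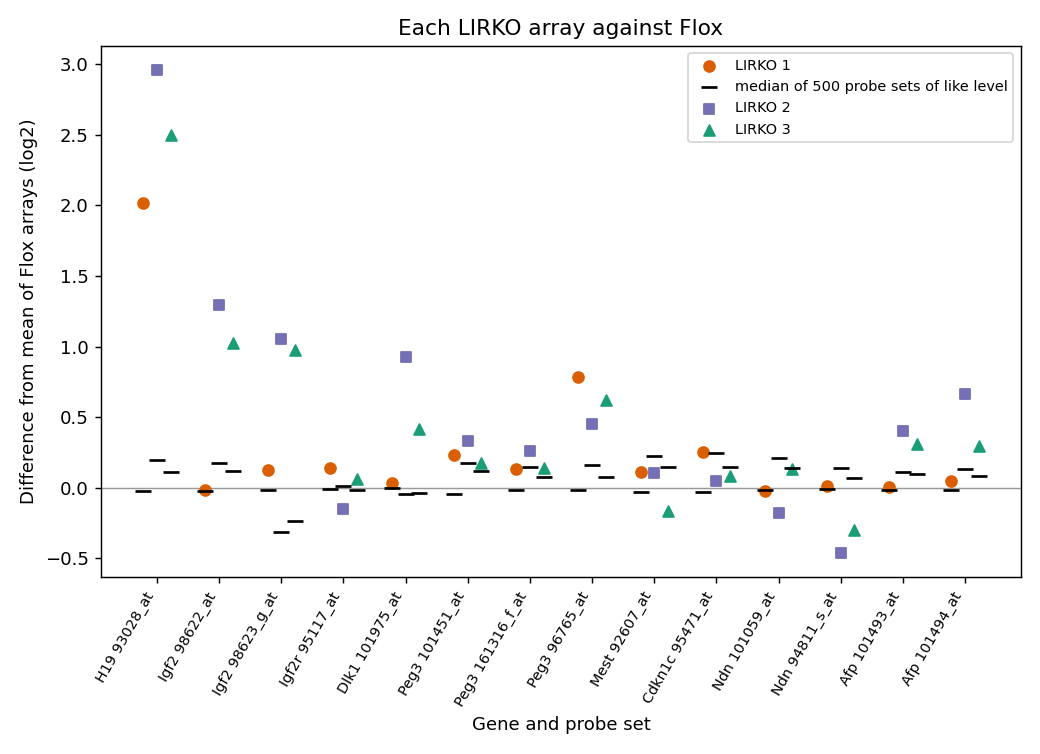
For each of the 14 probe sets, the difference of LIRKO 1, LIRKO 2 and LIRKO 3 from the Flox mean is drawn on the log2 scale, beside the median difference of the 500 probe sets nearest in Flox level. *H19* is 2.02 to 2.96 above Flox on all 3 arrays, and on LIRKO 1 *Igf2* is at -0.01 and 0.13, *Dlk1* at 0.03 and *Afp* at 0.01 and 0.05.

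Within 1 Mb on each side of *H19*, the annotation places 76 genes, and 27 of them besides *H19* were measured. On LIRKO 1 they differed from the Flox mean by -0.43 to 0.25, with a median of 0.01, against 2.02 for *H19*. Of these 27 genes, 7 lay above the Flox range on LIRKO 1 and 11 below it, where 24.7% and 30.9% of all probe sets did. Over all arrays, the 25 neighbours that are not among the genes described here had 0 calls in limma, and 5 passed an unadjusted p of 0.05, a level that 7.43% of all probe sets passed as higher and 13.5% as lower. The widest mean differences among them were those of *Cd81*, 477 kb above *H19*, at -1.30 (-0.30 on LIRKO 1), and of *Slc22a18*, a transporter gene 898 kb above it, at -0.75 (-0.19 on LIRKO 1), both with no overlap (adjusted p = 0.237 each). *Mrpl23*, a mitochondrial ribosomal protein gene whose first coordinate is 43.1 kb below that of *H19*, read 8.65, 7.86 and 7.89 in LIRKO, against 8.58, 8.56 and 8.49 in Flox, a difference of -0.41 (adjusted p = 0.290). *Tnnt3*, a troponin gene of fast skeletal muscle, 76.8 kb below on the same scale, read 5.05, 5.64 and 5.31 in LIRKO, against 4.95, 4.96 and 4.98 in Flox, a difference of 0.37 (adjusted p = 0.245). *Ins2*, an insulin gene 103 kb on the other side, differed by -0.34 (-0.43 on LIRKO 1; adjusted p = 0.272 in limma). Further out on that side, *Kcnq1*, a potassium channel gene of the neighbouring imprinted domain, was 0.64 above Flox (0.10 on LIRKO 1; adjusted p = 0.237), and *Cars*, at the far end of the window, was 0.40 below it (0.38 below on LIRKO 1; adjusted p = 0.237). These neighbours were picked for their place and values, after those were seen.

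**Figure D3:**
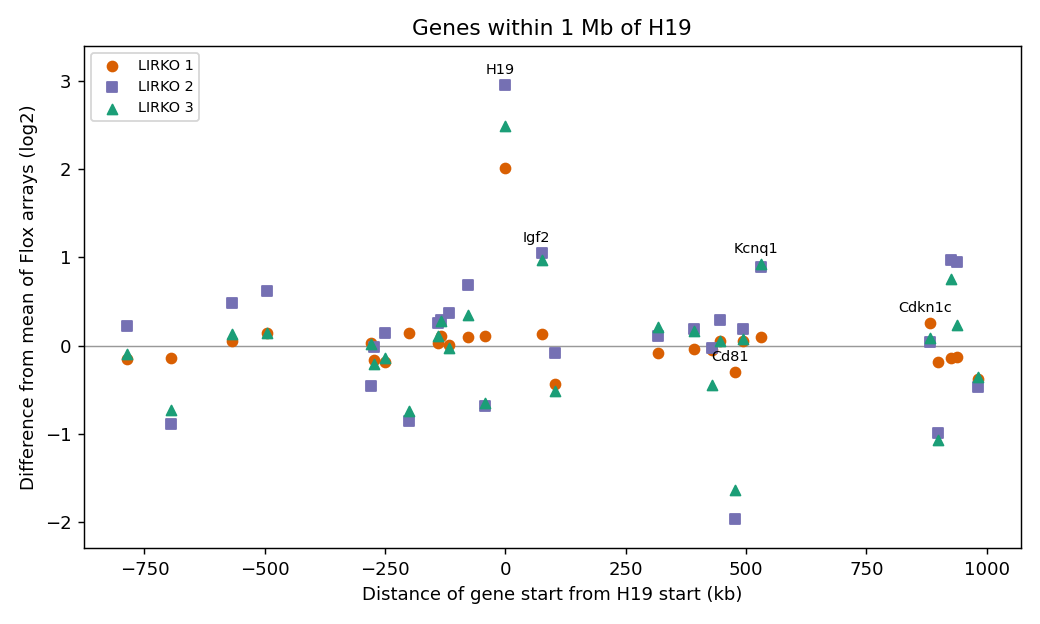
Each measured gene within 1 Mb of *H19* is drawn by the distance of its start from that of *H19* (kb) and by its log2 difference from the Flox mean on each LIRKO array. *H19*, at distance 0, lies at 2.02 on LIRKO 1, and its neighbours lie between -0.43 and 0.25 on that array.

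*Cdkn1c* encodes p57, an inhibitor of cyclin-dependent kinases that is expressed from the maternal allele, and lies 883 kb from *H19* on the same chromosome. Its probe set was dim, at percentile 6.37 of all probe sets in Flox. It read 3.91, 3.70 and 3.73 in LIRKO 1, 2 and 3, against 3.62, 3.71 and 3.62 in Flox. LIRKO 1 was the highest of the 6 and LIRKO 2 lay within the Flox arrays. The mean difference was 0.13 with a standard error of 0.11, and it was 0.01 after the shift of probe sets of like level was taken off.

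*Igf2r*, expressed from the maternal allele, encodes the receptor that takes up and degrades insulin-like growth factor 2. It lies on chromosome 17, at 12682406 to 12769706. It read 7.23, 6.94 and 7.15 in LIRKO, against 7.17, 6.92 and 7.17 in Flox, with LIRKO and Flox arrays interleaved. The difference was 0.01 with a standard error of 0.14.

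*Peg3*, a zinc finger gene expressed from the paternal allele, was read by 3 probe sets, and in each the LIRKO arrays lay above the Flox arrays. It lies on chromosome 7 at 6703892 to 6730462, far from *H19*. The probe set with the widest difference read 6.61, 6.27 and 6.45 in LIRKO 1, 2 and 3, against 5.96, 5.74 and 5.77 in Flox. The lowest LIRKO array was 0.31 above the highest Flox array. The means were 6.44 ± 0.17 in LIRKO and 5.83 ± 0.12 in Flox (SD, n = 3 each), a difference of 0.62 with a standard error of 0.14, or 1.54-fold. LIRKO 1 was 0.78 above the Flox mean, and the mean difference was 0.54 after the shift of probe sets of like level was taken off. The next probe set read 5.25, 5.35 and 5.20 in LIRKO, against 4.88, 5.14 and 5.05 in Flox, a difference of 0.24, or 0.16 with that shift taken off. The remaining probe set read 6.44, 6.56 and 6.44 in LIRKO, against 6.27, 6.39 and 6.25 in Flox, a difference of 0.18, or 0.11 with the shift taken off. In these 2 probe sets the lowest LIRKO array was only 0.054 and 0.041 above the highest Flox array.

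*Usp29*, another paternally expressed gene, starts 97 bases from *Peg3* and is transcribed away from it. Its probe set was dim, at percentile 4.46 of all probe sets in Flox. It read 3.64, 3.86 and 4.04 in LIRKO, against 3.52, 3.39 and 3.41 in Flox. The groups did not overlap, and the difference of 0.41 did not pass the limma test (adjusted p = 0.237).

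*Dlk1* encodes a transmembrane protein of the Notch ligand family that marks liver progenitor cells, and is expressed from the paternal allele. It lies on chromosome 12 at 109452485 to 109463336. It read 7.33, 8.23 and 7.72 in LIRKO 1, 2 and 3, against 7.33, 7.30 and 7.27 in Flox. LIRKO 2 and LIRKO 3 were high, while LIRKO 1 lay only 0.008 above the highest Flox array. The means were 7.76 ± 0.45 in LIRKO and 7.30 ± 0.03 in Flox (SD, n = 3 each), a difference of 0.46 with a standard error of 0.22. The mean difference was 0.49 after the shift of probe sets of like level was taken off. *Meg3*, a maternally expressed non-coding RNA gene that starts 77.7 kb beyond *Dlk1*, read 7.95, 7.83 and 7.79 in LIRKO, against 8.17, 8.03 and 7.94 in Flox. Its difference was -0.19 (adjusted p = 0.342 in limma). The pair *Dlk1* and *Meg3* has the same arrangement as *Igf2* and *H19*, a paternally expressed protein gene beside a maternally expressed non-coding RNA.

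Insulin signalling keeps FoxO transcription factors out of the nucleus, and they bind a short core motif. This motif, GTAAACA, or TGTTTAC on the other strand, was searched in RefSeq's windows of 250 bases before to 50 after a start. Such a start need not be the outermost coordinate of the gene given above. Both *Dlk1* and *Peg3* are shown, as 2 genes outside the *H19* region whose groups did not overlap, with any match on either strand in capitals.
Dlk1, chr12:109452573-109452872, plus strand, GRCm38.p6: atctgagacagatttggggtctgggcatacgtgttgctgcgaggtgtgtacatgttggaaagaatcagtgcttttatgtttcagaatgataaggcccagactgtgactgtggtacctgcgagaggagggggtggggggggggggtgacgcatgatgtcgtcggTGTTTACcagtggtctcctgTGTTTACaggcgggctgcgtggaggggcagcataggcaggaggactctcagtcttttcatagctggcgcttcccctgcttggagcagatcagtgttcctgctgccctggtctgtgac
Peg3, chr7:6730370-6730669, minus strand, GRCm38.p6: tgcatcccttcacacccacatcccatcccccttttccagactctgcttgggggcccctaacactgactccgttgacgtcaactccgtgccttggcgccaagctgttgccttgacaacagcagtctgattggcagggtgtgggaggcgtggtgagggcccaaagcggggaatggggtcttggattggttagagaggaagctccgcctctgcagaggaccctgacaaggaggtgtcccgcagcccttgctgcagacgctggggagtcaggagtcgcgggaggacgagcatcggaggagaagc
The *Dlk1* window held 2 matches and the *Peg3* window held 0. The *Dlk1* window lies wholly inside the span given for the gene above, so its matches are not upstream of that span. Over 32851 windows of all genes, 1199 (3.65%) held the motif and 36 (0.11%) held it 2 times or more. Windows were found for 8 of the 10 genes, 16 in all, and 1 of the 16 held the motif. A match is a stretch of letters, and binding was not measured.

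*Mest* and *Ndn*, both expressed from the paternal allele, showed no array pattern that separated the groups. *Mest*, a gene of the alpha/beta hydrolase family on chromosome 6, read 4.07, 4.07 and 3.80 in LIRKO, against 3.80, 4.09 and 4.0 in Flox, a difference of 0.02. *Ndn*, which encodes necdin and lies 1.90 Mb on chromosome 7 from *Snrpn*, the unmeasured gene of a splicing protein, was read by 2 probe sets. The first read 4.55, 4.39 and 4.70 in LIRKO, against 4.62, 4.53 and 4.56 in Flox, a difference of -0.02. The second read 6.32, 5.85 and 6.01 in LIRKO, against 6.34, 6.27 and 6.32 in Flox. LIRKO 2 and LIRKO 3 were below Flox there and LIRKO 1 was within it, and the difference was -0.25 with a standard error of 0.15.

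*Afp*, which is expressed from both alleles and lies on chromosome 5 at 90490714 to 90508907, was read by 2 probe sets. One read 5.99, 6.38 and 6.29 in LIRKO 1, 2 and 3, against 5.87, 6.13 and 5.94 in Flox. The other read 5.98, 6.60 and 6.23 in LIRKO, against 5.81, 6.13 and 5.86 in Flox. In both, LIRKO 2 and LIRKO 3 were above all Flox arrays and LIRKO 1 was among them. The mean differences were 0.24 and 0.34, with standard errors of 0.15 and 0.19, or 0.17 and 0.27 with the like-level shift taken off. On LIRKO 1 the differences, with no shift taken off, were 0.01 and 0.05. *H19* was 2.02 above Flox on that array.

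Of the 14 probe sets, 12 had a mean difference above 0, and the median was 0.24, against 0.01 over all probe sets. On LIRKO 1 the median was 0.12, against -0.02 over all probe sets. These medians are not matched for level, and the like-level shift of the 14 ran from -0.31 to 0.25 on LIRKO 2. By allele, the 3 measured maternally expressed genes, *H19*, *Igf2r* and *Cdkn1c*, differed by 2.49, 0.01 and 0.13. The 5 measured paternally expressed genes ran from -0.25, for a probe set of *Ndn*, to 0.77, for a probe set of *Igf2*.

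*Zbtb20*, a zinc finger repressor that silences *Afp* after birth in mouse liver, belongs to a list of regulators of *H19*, *Afp* or imprints. It read 7.26, 5.89 and 6.20 in LIRKO 1, 2 and 3, against 7.44, 7.43 and 7.67 in Flox 1, 2 and 3. All LIRKO arrays were below all Flox arrays, LIRKO 1 by the least. The difference was -1.06 with a standard error of 0.34 and did not pass the limma test (adjusted p = 0.237), and on LIRKO 1 it was -0.25. Probe sets of like level shifted by -0.15 and -0.10 on LIRKO 2 and LIRKO 3. *Cebpa* and *Hnf4a*, transcription factors of mature hepatocytes, differed by -1.16 and -0.71 (adjusted p = 0.237 and 0.268). On LIRKO 1 their differences were -0.33 and 0.14. Both are bright, and probe sets of like level shifted by -1.43 and -1.20 around *Cebpa* and by -0.89 and -0.74 around *Hnf4a* on LIRKO 2 and LIRKO 3, where *Cebpa* itself differed by -2.003 and -1.14 and *Hnf4a* by -1.34 and -0.93. Of the 22 measured regulators, 0 passed the limma test in either direction, and 0 higher and 5 lower passed an unadjusted p of 0.05, against 7.43% and 13.5% of all probe sets. The groups did not overlap in 0 with LIRKO higher and in 5 with LIRKO lower, against 9.84% and 14.9% of all. The list's median was -0.21, and 0.05 on LIRKO 1.

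Fetal and progenitor genes of the liver other than those above, a list of 33 with 22 measured, had 0 calls in either direction. In limma, 4 higher and 0 lower passed an unadjusted p of 0.05, against 7.43% and 13.5% of all probe sets. Their groups did not overlap in 5 genes with LIRKO higher and in 1 with LIRKO lower, against 9.84% and 14.9% of all. The list's median was 0.20 (0.02 on LIRKO 1). The widest difference was that of *Lpl*, lipoprotein lipase, which liver makes before and shortly after birth. It read 7.98, 7.44 and 8.35 in LIRKO, against 6.34, 6.28 and 6.49 in Flox. All LIRKO arrays were high, with a difference of 1.55 and a standard error of 0.23 (adjusted p = 0.122), and of 1.61 on LIRKO 1. *Ccnd1*, the cell cycle gene of cyclin D1, read 8.71, 7.98 and 8.25 in LIRKO, against 7.76, 7.68 and 7.45 in Flox (difference 0.68, 1.08 on LIRKO 1, adjusted p = 0.237). *Mki67*, a marker of dividing cells, differed by 0.86, but by 0.00 on LIRKO 1 (adjusted p = 0.238).

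Other imprinted genes, a list of 53 with 32 measured, had 0 calls in either direction. In limma, 4 higher and 6 lower passed an unadjusted p of 0.05, against 7.43% and 13.5% of all probe sets. The groups did not overlap in 4 with LIRKO higher and in 5 with LIRKO lower, against 9.84% and 14.9% of all. The list's median was 0.06 (-0.02 on LIRKO 1). The widest differences were those of *Cd81*, a tetraspanin gene, at -1.30, of *Gnas*, the gene of a stimulatory G protein subunit, at -1.30, and of *Ddc*, the gene of dopa decarboxylase, at -0.98 (adjusted p = 0.237 each). On LIRKO 1 they were -0.30, -0.09 and -0.23. *Cd81* and *Gnas* lay among the brightest probe sets, whose like-level shift was -1.16 and -1.43 on LIRKO 2.

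The insulin-like growth factor and insulin genes beside *Igf2* and *Igf2r* were a list of 9, with 8 measured and 0 called. In limma, 2 higher and 2 lower passed an unadjusted p of 0.05, against 7.43% and 13.5% of all probe sets. *Igf1*, the growth factor that adult liver secretes, read 11.1, 8.57 and 8.84 in LIRKO 1, 2 and 3, against 11.4, 11.3 and 11.5 in Flox. The difference was -1.91 (adjusted p = 0.237), and it was -0.31 on LIRKO 1. Probe sets of like level shifted by -1.42 and -1.19 on LIRKO 2 and LIRKO 3, where *Igf1* differed by -2.85 and -2.58. *Igfals*, which encodes the protein that holds the growth factors in serum, read 9.29, 7.59 and 8.22 in LIRKO, against 10.3, 10.2 and 10.1 in Flox. Its difference was -1.86 (adjusted p = 0.237), and -0.93 on LIRKO 1, with like-level shifts of -1.03 and -0.84 on LIRKO 2 and LIRKO 3. The receptor gene *Igf1r* differed by 0.51, *Insr* by 0.46, the adaptor genes *Irs1* and *Irs2* by 0.41 and 0.40, *Ins2* by -0.34 and *Insrr* by 0.03, none of them called. On LIRKO 1 their differences were 0.08, 0.02, 0.01, 0.18, -0.43 and -0.04, in the same order.

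**Figure D4:**
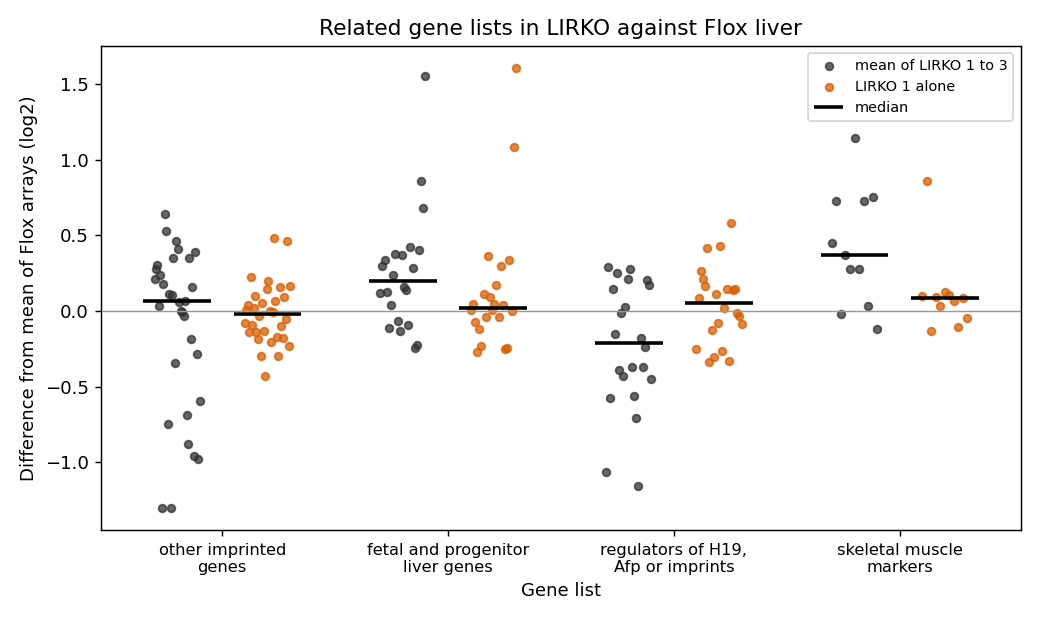
Each point is one measured gene of a list, drawn by its log2 difference from the Flox mean, with dark points for the mean of LIRKO 1 to 3, orange points for LIRKO 1 alone and a line at each median. The medians over 3 arrays are 0.06 for other imprinted genes, 0.20 for fetal and progenitor genes, -0.21 for regulators and 0.37 for skeletal muscle markers, and on LIRKO 1 they are -0.02, 0.02, 0.05 and 0.09.

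Hepatocyte markers, 12 of 13 measured, were bright on all arrays. Their log2 summed level was 16.6, 15.9 and 16.0 in LIRKO 1, 2 and 3, against 16.5 to 16.6 in Flox. Of other cell types and tissues, skeletal muscle markers, 11 of 11 measured, had a summed level of 11.1, 11.9 and 11.8 in LIRKO, against 10.9 to 11.1 in Flox, and the median difference was 0.37 (0.09 on LIRKO 1). Their widest difference was that of *Myh4*, a fast myosin gene, at 1.15 (0.13 on LIRKO 1). *Pvalb*, the brightest of them on each LIRKO array, followed at 0.75 (0.09 on LIRKO 1). *Acta1* was at 0.73, with 0.86 on LIRKO 1, 1.70 on LIRKO 2 and -0.37 on LIRKO 3. *Mb* and *Eno3* were at -0.02 and -0.12. *Ckm*, muscle creatine kinase, read 5.73, 6.23 and 6.26 in LIRKO, against 5.56, 5.76 and 5.57 in Flox. Adult skeletal muscle keeps some *H19*. Stellate cell markers, 10 measured, had a summed level of 11.4, 12.2 and 12.0 in LIRKO, against 10.9 to 11.4 in Flox, and a median difference of 0.17. *Reln* and *Col1a2*, at 1.97 and 1.33, were the highest of them, while *Col3a1* was at -0.90 (adjusted p = 0.237 each in limma). On LIRKO 1 these genes were at -0.03, 0.18 and -0.58. Cholangiocyte markers, 5 measured, had a summed level of 8.46, 9.07 and 8.80 in LIRKO, against 8.50 to 8.72 in Flox. Kupffer cell markers, 9 measured, summed to 12.1, 10.9 and 11.5 in LIRKO, against 11.1 to 12.0 in Flox, and endothelial markers, 8 measured, to 10.9, 10.8 and 11.0 in LIRKO, against 10.4 to 11.0 in Flox. Markers of exocrine pancreas, adipose tissue and erythroid cells, 5 measured of each, had median differences of -0.30, -0.02 and -0.28 (-0.29, 0.04 and -0.14 on LIRKO 1). On LIRKO 1 *H19* was 2.02 above Flox. Summed levels on that array lay above the Flox range for Kupffer cell, hepatocyte and muscle markers, for muscle by the least. They lay below it for cholangiocyte, exocrine pancreas and adipose markers, and within it for the other marker lists. The highest median difference of a marker list there was 0.41, in Kupffer cell markers, against 0.09 in muscle markers. None of the marker lists had a call, and their part in the values above was not tested.

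The genes whose values were most like those of *H19* over the 6 arrays were *Mycl*, *Maff*, *Rasd1*, *Rgs16* and *Lepr*, by Pearson's r among the 1628 probe sets with an SD of at least 0.5. Their r was 0.99, 0.98, 0.96, 0.96 and 0.96, which the difference between the groups largely sets, so it is a description over 6 arrays. *Mycl*, a gene of the MYC family, differed by 1.55 (1.09 on LIRKO 1; adjusted p = 0.122 in limma). *Rgs16*, a regulator of G protein signalling, was higher by 2.75 (2.70 on LIRKO 1; adjusted p = 0.0257), and *Lepr*, the leptin receptor gene, was higher by 5.23 (5.43 on LIRKO 1; adjusted p = 0.000102). *Maff* and *Rasd1* differed by 0.92 and 0.86 (adjusted p = 0.158 and 0.237), and on LIRKO 1 by 0.81 and 0.51. The call of *Rgs16* was lost without LIRKO 2, LIRKO 3 or Flox 1 (adjusted p = 0.0828, 0.251 and 0.109 in limma), and that of *Lepr* held when any 1 array was left out. Without LIRKO 1, the adjusted p in limma was 2.17e-05 for *Mycl*, 0.000450 for *Maff* and 0.000476 for *Rasd1*. In that setting 6095 of the 12422 probe sets passed. When any other array was left out, the adjusted p of these genes in limma was between 0.244 and 0.545.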

How the data were processed

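Liver RNA of 3 LIRKO and 3 Flox pools was measured on Affymetrix mouse genome arrays. The authors corrected background, normalized and summarized the arrays by robust multichip averaging (RMA), and the log2 values they deposited hold 1 number for each probe set on each array. No source used here says if the 6 arrays went through normalization as one batch. These log2 values were taken as deposited. The number of arrays limits the precision of each value.

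Of 12488 probe sets, 66 array controls were left out. Groups were compared by limma 3.58.1 (lmFit and eBayes) in R 4.3.3, with Benjamini-Hochberg adjustment over 12422 probe sets and a threshold of 0.05, after the study's methods. The test was checked on simulated data, in which the spread of all arrays was taken from the Flox arrays. That check does not cover arrays that behave like LIRKO 2 and LIRKO 3. Tables and figures were made in Python 3.11.15 with numpy 2.4.6, pandas 2.3.3 and matplotlib 3.10.9.

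The annotation of the platform gave 1 symbol to 10833 probe sets, several to 396 and none to 1193. Of the 10833, 10817 were found by Entrez ID in the RefSeq gene table (GRCm38.p6) and 16 were not. A listed gene was represented by the brightest probe set, on average, of those with its symbol alone.

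The genes and lists were chosen with earlier results of these data known. Named genes are every probe set of the 10 genes, the 3 genes with the widest difference in each list and any past the threshold, all insulin-like growth factor and insulin genes, and the 5 genes most correlated with *H19*. From marker lists only those of muscle and stellate cells with the widest differences are named. Neighbours of *H19*, *Usp29*, *Meg3* and *Ckm* were chosen after their values were seen.

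Alternatives were quantile, cyclic loess and median scaling, a filter on dim probe sets (25th percentile, which left 9520), an intensity trend with robust variances, the replicate number as a block, the methods' t-test, LIRKO 1 alone and leaving out each array. Subtracting the shift of the 500 probe sets of like level was added after seeing the data.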

Additional observations from a re-analysis of the deposited data

Results flagged for a closer look

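The array's hybridization controls, 9 probe sets for bacterial and phage transcripts that are added to the sample during preparation, were not used in any comparison above. On LIRKO 2 their median lay 1.08 above the mean of the Flox arrays on the log2 scale, with 9 of 9 above it. On LIRKO 3 it lay 0.962 above, with 8 of 9 above it. On LIRKO 1 the median was 0.25 below the Flox mean, and the single Flox arrays lay between -0.23 and 0.18. These are the arrays on which *Igf2* and *Afp* lay above all Flox arrays, and the part of this difference in those values was not tested.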

How the results depend on the processing

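Over all probe sets 16 were called. The count was 40 after cyclic loess, 90 with LIRKO 1 alone against Flox, and 0 by the methods' t-test, where 728 passed an unadjusted p of 0.05 (2602 in limma). It ran between 2, without LIRKO 2, and 6095, without LIRKO 1, when 1 array was left out, and was 3 without LIRKO 3, 5 without Flox 1, and 3 without Flox 2 or Flox 3. Of the 14 probe sets described, 1 was called. The count was 0 by the methods' t-test (3 at an unadjusted p of 0.05) and 2 with LIRKO 1 alone, *H19* and a probe set of *Peg3*. It ran from 0 to 8 when 1 array was left out. In the lists of other imprinted genes, fetal and progenitor genes, regulators, and insulin-like growth factor genes, 0 genes were called in limma (unadjusted counts are given above) and 0 by the other settings, but for 18, 9, 11 and 6 without LIRKO 1, and for 2 fetal genes and 1 growth factor gene with LIRKO 1 alone, a fit in which the spread comes from the Flox arrays and the lone LIRKO array is assumed to vary like them. Leaving out any other array gave 0. The cause was not tested.

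The *H19* difference was 2.02 with LIRKO 1 alone and 2.26 to 2.73 when 1 array was left out. Its sign was fixed in those settings, as the groups did not overlap. After quantile, cyclic loess and median scaling it was 2.57, 2.49 and 2.48, and with the like-level shift taken off 2.40. The filter on dim probe sets, the robust variances, the t-test and the block do not change a difference of means, which stayed at 2.49. With LIRKO 1 alone the differences were -0.014 and 0.13 for *Igf2*, 0.033 for *Dlk1*, 0.78 for *Peg3*, 0.25 for *Cdkn1c*, 0.0092 for *Ndn*, and 0.0062 and 0.050 for *Afp*. Each of these, and the 2.02 of *H19* with LIRKO 1 alone, was over 1 SD from its value over all arrays. The SD here is pooled from the LIRKO and Flox groups. *Cdkn1c* was 0.015 after quantile normalization, 0.012 after cyclic loess and 0.0065 after the like-level shift was taken off. The 13 other probe sets had 191 alternatives in all, of which 11 moved by over 1 SD. The filter on dim probe sets and the settings that change only the test are counted among the 191 and could not move a difference.

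With the replicate number as a block (replicate block), 11 probe sets were called in all and 1 of those described, *H19*. Deviations of same-numbered arrays correlated by 0.32, 0.40 and 0.09. LIRKO 1 and LIRKO 2 correlated best with the Flox array of their own number, and LIRKO 3 with Flox 2 (0.17). With 3 arrays in each group, whether same-numbered arrays share more than a number cannot be told.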
